A study of Mus musculus with 8 samples.

Results

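Ly6Chi monocytes, the end of bone marrow monocyte maturation, were compared directly with monocyte-dendritic cell progenitors (MDPs), its start. The comparison took 3 of the 8 RNA-seq libraries of a mouse series: both wild-type Ly6Chi libraries and the single MDP library, each with its gene expression column and its intron retention table. The libraries were chosen by their labels, because the 2 groups lean alike towards the 3′ end of transcripts and retention can then be set side by side. The Ly6Chi cells came from bone marrow, were untreated, had the genotype tags Ly6Chi_WT and LyC6hi_WT, and their expression columns carry the label FL_FL (a usual notation for floxed alleles; no recombinase is named for them). The MDPs came from bone marrow, were untreated and had the genotype tag MDP_WT, and their column carries no FL_FL label. The other 5 libraries, 2 of common monocyte progenitors (cMoPs), 2 of Ly6Chi cells with Upf2 knocked out and 1 of Ly6Clo monocytes, served to estimate the spread or as background values. All were made from poly-A enriched RNA with a stranded kit and read as pairs of 100 bases. The labels also tag every sample as a monocytic cell line, although the source names and growth field describe primary bone marrow cells. Neither ages nor animals are given, so p-values measure the spread between libraries, which may be technical.

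MDPs are bone marrow progenitors that give rise to monocytes and dendritic cells, and they are recognised by the receptors Flt3, Kit and Csf1r. They pass through the cMoP stage, which has lost dendritic cell potential, and become Ly6Chi monocytes, which leave the marrow through the chemokine receptor Ccr2 and enter inflamed tissue. Intron retention is the presence of an unspliced intron in an otherwise mature transcript. Such transcripts are often held in the nucleus or degraded by nonsense-mediated decay (NMD), and the introns of some kinase and splicing factor genes are known to be spliced late in response to signals.

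The spliced junctions of 7 introns described below are shown as the letters that meet once the intron is removed. None of these 7 passed the retention test with all libraries. The introns that did pass, in Apoe, Adssl1 and Sema4d, are not shown. Each line gives the 15 exon bases before the intron and the 15 after it, read 5′ to 3′ on the coding strand from GENCODE M21 transcripts (build GRCm38, mm10). Capitals mark the 3 bases on either side of the joint.
Odc1, exons 9 and 10, intron at chr12:17549587-17549667, plus strand: agcccggctctgACGATGaagatgagtcaa
Slc3a2, exons 6 and 7, intron at chr19:8709146-8709229, minus strand: tggtgcagctggAGTGTGtcgcaagcagga
Pcna, exons 3 and 4, intron at chr2:132251439-132251690, minus strand: caacttggaatcCCAGAAcaggagtacagc
Ogt, exons 4 and 5, intron at chrX:101652209-101655623, plus strand: ttggaagaagccAAGGCAtgttatttgaaa
Klf2, exons 2 and 3, intron at chr8:72320243-72320743, plus strand: tgcgtacacacaCAGGTGagaagccttatc
Fos, exons 3 and 4, intron at chr12:85475700-85475816, plus strand: gatacactccaaGCGGAGacagatcaactt
Clk1, exons 4 and 5, intron at chr1:58419734-58420120, minus strand: tactaagtgcaaGATATGaaattgttgata
A read across one of these joints counts as exactly spliced, and a read that runs from an exon into the intron counts as a boundary read. The spliced reads given below for single introns, and used in the retention test, are the larger of the left-end and right-end spliced counts. Introns that share an end can therefore share that count. All 7 introns lie between coding exons.

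The intron tables hold 31388146 and 34202084 exactly spliced reads for the Ly6Chi libraries and 29100467 for the MDP library. Genes at 1 TPM (transcript abundance corrected for length, with the same total in every library) or more numbered 11986 and 11922 in Ly6Chi and 12635 in MDP. The 3′ lean, the median over 5382 genes of the log2 ratio of spliced reads at the 3′ part of a gene's introns to those at the 5′ part (of 3 equal parts), was 0.32 and 0.38 in Ly6Chi and 0.34 in MDP, so the MDP value lay between the replicates. With the last intron set against the first, MDP (0.70) lay below both Ly6Chi libraries (0.74 and 0.78). The cMoP and knockout libraries leaned further, from 0.58 to 0.86. The MDP library shared one feature with the Ly6Clo library alone: 6 genes were listed at 5 TPM or more in both and at 0 in the other 6 libraries, against 0 to 3 genes for the other 27 pairs of libraries. They were Gm14287, Mir142b, Gm26394, Gm26254, Mir6418 and Mir6244, and the part of library preparation in this was not tested. Whether a difference in the summed RNA of these populations reflects fewer cells of a type or less RNA per cell cannot be told apart in bulk samples.

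The 2 ends of maturation differed in 43.8% of genes tested. Of 13126 genes with at least 1 TPM in 2 of the 8 libraries, 2383 (18.2%) were higher and 3365 (25.6%) lower in Ly6Chi than in MDP, by limma on log2(TPM + 1) with a Benjamini-Hochberg adjusted p under 0.05. Without Ly6Chi replicate 1 the number called was 3020 and without replicate 2 it was 2990, against 5748 with both. The fit used 1 mean per group over all 8 libraries, so the single MDP library was assumed to vary as the replicated groups do. All fold changes below are on that log2(TPM + 1) scale, Ly6Chi minus MDP, and understate the change of genes with low values. The median change of all genes tested was -0.14. Among the genes tested, 166 were higher by a log2 change of at least 4, and 58 were lower by as much. These counts are not balanced, because the filter asked for 1 TPM in 2 libraries. A gene found only in the single MDP library was left out, while one found only in both Ly6Chi libraries was kept. Without that filter 2318 genes were called higher and 5020 lower. Across these genes the log2 values correlated at r = 0.99 between the Ly6Chi replicates and at 0.82 between either replicate and MDP, a description over genes, which are not independent.

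The 10 largest rises were led by Fn1, which encodes the matrix protein fibronectin, at 3061 and 2444 TPM in Ly6Chi and 4.89 TPM in MDP. Its log2 change was 8.86 ± 0.47 (SE; limma adjusted p = 0.00027). Lyz2, the lysozyme of phagocytes, stood at 36103 and 38197 TPM in Ly6Chi and 198 TPM in MDP, a log2 change of 7.54 ± 0.36. Both Ly6Chi libraries lay far above the MDP value for each gene, and Lyz2 had the highest mean TPM of all genes tested in Ly6Chi. Tgfbi, a secreted matrix-binding protein induced by TGF-beta, was at 957 and 886 TPM in Ly6Chi and 6.14 TPM in MDP. Msr1, a macrophage scavenger receptor, was at 119 and 109 TPM in Ly6Chi and 0.16 TPM in MDP. The other 6 were Sirpb1c, Clec4a3, Clec4a1, Gm9733, Ms4a8a and Klra2, with log2 changes of 7.75, 7.56, 7.44, 6.98, 6.93 and 6.67. Sirpb1c, Clec4a1, Clec4a3, Ms4a8a and Klra2 belong to families of related surface protein genes, and how the counting split reads among similar members is uncertain.

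**Figure D1:**
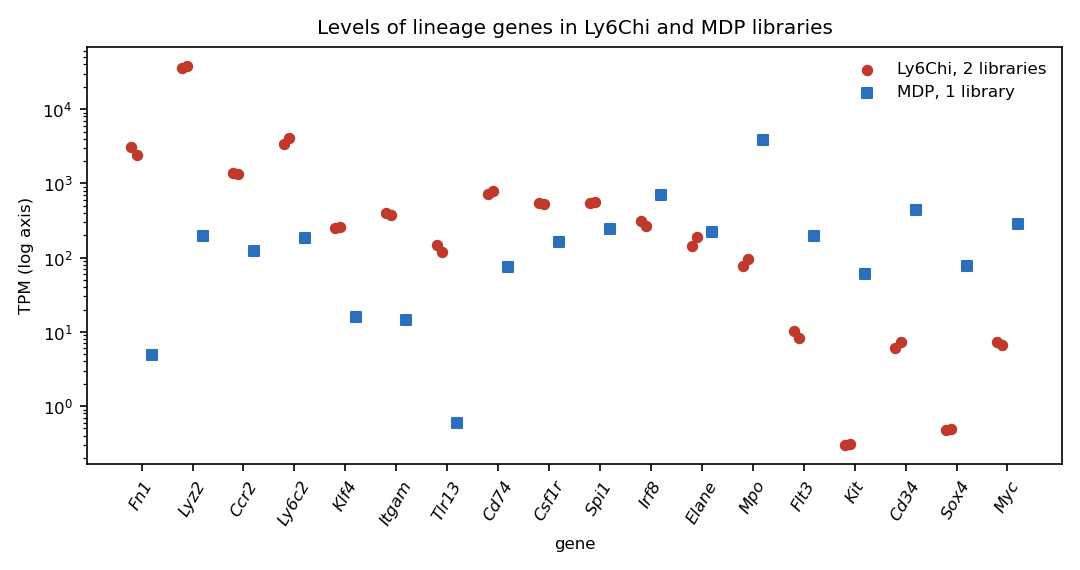
TPM on a log axis for 18 lineage genes, with each Ly6Chi library as a red circle and the MDP library as a blue square. Genes of mature monocytes such as Fn1 and Lyz2 lay higher in both Ly6Chi libraries, progenitor genes such as Kit and Sox4 lay higher in MDP, and Elane lay close in all 3.

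The largest falls held stem and progenitor genes. Cd34, the sialomucin of haematopoietic progenitors, was at 6.08 and 7.33 TPM in Ly6Chi and 444 TPM in MDP, a log2 change of -5.86 ± 0.30 (SE; limma adjusted p = 0.00026). Adgrg1, an adhesion receptor of haematopoietic stem cells, was at 1.10 and 0.73 TPM in Ly6Chi and 142 TPM in MDP. Ccnd2, cyclin D2 of the G1 phase, was at 0.27 and 0.47 TPM in Ly6Chi and 92.9 TPM in MDP. In all 3 genes the MDP library stood far above both Ly6Chi libraries. Il12a, Egfl7, Adgrg3, Sox4 and Muc13 had log2 changes of -6.15, -6.12, -6.44, -5.73 and -5.57. Gm14287 was listed at 0 in both Ly6Chi libraries and at 242 TPM in MDP, so no fold is given, and it is one of the 6 genes shared with the Ly6Clo library above.

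Progenitor surface genes fell in part. Of 19 tested, 9 were lower and 2 higher, with a median log2 change of -0.20; 4 were higher with median centring or quantile normalisation and 5 without the cMoP libraries. Kit, the receptor for stem cell factor, was at 0.30 and 0.31 TPM in Ly6Chi and 60.5 TPM in MDP, a log2 change of -5.56 ± 0.31. Flt3, the cytokine receptor that marks MDPs, was at 10.3 and 8.19 TPM in Ly6Chi and 197 TPM in MDP, a log2 change of -4.28 ± 0.59. The 2 members that rose, Cd53 and Cd48, are surface proteins found widely on leukocytes, with log2 changes of 1.19 and 0.70, and neither passed without either Ly6Chi replicate. Progenitor transcription factors moved more evenly: 15 of 19 tested were lower and 2 higher, with a median of -1.94. Myc, a driver of cell growth, was at 7.39 and 6.68 TPM in Ly6Chi and 287 TPM in MDP. Sox4 was at 0.48 and 0.49 TPM in Ly6Chi and 77.6 TPM in MDP, and Erg, an ETS factor of stem cells, at 0.27 and 0.30 TPM in Ly6Chi and 54.0 TPM in MDP. In each of the 3 the Ly6Chi replicates lay close together and far below MDP. Id2, an inhibitor of helix-loop-helix factors, and Nfe2 rose, by log2 changes of 2.11 and 1.86.

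Genes of Ly6Chi monocytes rose in 29 of 31 cases and fell in none, with a median log2 change of 4.34. Their summed level was 68770 and 71231 TPM in Ly6Chi and 6932 TPM in MDP. Ly6c2, which encodes the surface antigen that names the cells, was at 3439 and 4057 TPM in Ly6Chi and 184 TPM in MDP, a log2 change of 4.34 ± 0.22 (SE; limma adjusted p = 0.00026). Ly6c2 was already at 4875 and 3518 TPM in the cMoP libraries. Ccr2 was at 1401 and 1357 TPM in Ly6Chi and 123 TPM in MDP, a log2 change of 3.47 ± 0.34. Plac8, a gene of myeloid cells, did not pass, with a log2 change of -0.45. Flt3, Kit and Cd34 were thus high in MDP, and Ly6c2 and Ccr2 high in Ly6Chi. Csf1r, by which MDPs are also recognised, was higher in Ly6Chi, at 547 and 535 TPM, beside 163 TPM in MDP. The level of Ly6c2 did not set Ly6Chi apart from cMoP.

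Monocyte transcription factors rose in 21 of 29 cases, and 1 was lower, with a median log2 change of 1.89. Without Ly6Chi replicate 2, 13 rose and none fell. Klf4, a zinc-finger factor needed for Ly6Chi monocytes, was at 250.0 and 262 TPM in Ly6Chi and 15.8 TPM in MDP. Spi1, the factor PU.1, was at 538 and 554 TPM in Ly6Chi and 241 TPM in MDP, a log2 change of 1.18 ± 0.17. For both genes the replicates lay close together and above MDP. Atf3 and Nr4a1, both early response genes, rose with wide spread: Atf3 was at 66.6 and 260 TPM in Ly6Chi and 0.34 TPM in MDP, and Nr4a1 at 97.3 and 193 TPM in Ly6Chi and 4.53 TPM in MDP. The member that fell was Irf8, a factor that commits progenitors to monocytes and dendritic cells, at 310 and 268 TPM in Ly6Chi and 706 TPM in MDP. Its log2 change was -1.29 ± 0.30 (SE; limma adjusted p = 0.018).

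Growth factor and cytokine receptors rose in 13 of 20 cases and fell in none. Csf1r, the receptor for the monocyte growth factor CSF1, was at 547 and 535 TPM in Ly6Chi and 163 TPM in MDP, a log2 change of 1.73 ± 0.35. The 3 largest rises were of Il13ra1, Tnfrsf1b and Csf2ra, which bind interleukin 13, tumour necrosis factor and GM-CSF, with log2 changes of 4.57, 3.68 and 3.28. Cx3cr1, the fractalkine receptor, was at 253 and 233 TPM in Ly6Chi and 48.6 TPM in MDP, but its log2 change of 2.30 ± 0.81 did not pass (limma adjusted p = 0.064). It was at 19.8 and 3.59 TPM in the cMoP libraries.

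Primary granule genes, which encode proteins packed into the granules of early myeloid cells, fell in 14 of 20 cases and rose in 3, with a median log2 change of -2.01. Mpo, myeloperoxidase, was at 77.2 and 97.3 TPM in Ly6Chi and 3876 TPM in MDP, a log2 change of -5.47 ± 0.27 (SE; limma adjusted p = 0.00024). The cMoP libraries, at 12416 and 10338 TPM, stood above both ends. Elane, neutrophil elastase, was at 144 and 191 TPM in Ly6Chi and 219 TPM in MDP and did not pass (log2 change -0.40 ± 0.21), while the cMoP libraries held 5617 and 4842 TPM. A comparison of the 2 ends alone therefore leaves out the peak of these genes. Igfbp4 and Cst7 fell by 4.85 and 4.22 on the log2 scale. Ctsc, the protease that activates granule serine proteases, rose and was at 614 and 718 TPM in Ly6Chi and 41.1 TPM in MDP.

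Genes of innate sensing rose together. Pattern recognition receptors and their adaptors were higher in 23 of 26 cases and lower in none, with a median log2 change of 2.61. Tlr13, a sensor of bacterial ribosomal RNA, was at 147 and 120 TPM in Ly6Chi and 0.59 TPM in MDP, a log2 change of 6.40 ± 0.31. Tlr8 was at 95.5 and 141 TPM in Ly6Chi and 0.63 TPM in MDP. Cd14, the co-receptor for lipopolysaccharide, was at 30.4 and 77.6 TPM in Ly6Chi and 1.74 TPM in MDP, so its replicates differed but both lay above MDP. Interferon response genes were higher in 26 of 30 cases and lower in none, with a median of 2.86. Ifi204, Zbp1 and Ifit3 had log2 changes of 6.30, 5.41 and 5.32, and Ifit3 was at 40.3 and 54.9 TPM in Ly6Chi and 0.20 TPM in MDP.

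Chemokines and their receptors rose in 11 of 17 cases and fell in 1. Ccl6, a myeloid chemokine, was at 941 and 840 TPM in Ly6Chi and 10.1 TPM in MDP, and Ccl2, the ligand of Ccr2, at 21.5 and 70.8 TPM in Ly6Chi and 0.41 TPM in MDP. Cxcr2, the neutrophil chemokine receptor, fell and was at 0.88 and 1.53 TPM in Ly6Chi and 4.07 TPM in MDP. Without Ly6Chi replicate 2, 7 of the chemokine genes rose and none fell. Among integrins and adhesion genes 10 of 20 rose and 4 fell, and 5 rose and 3 fell without either Ly6Chi replicate. Itgam and Itgb2, the 2 chains of the complement receptor Mac-1, rose by log2 changes of 4.65 ± 0.51 (the more abundant of 2 gene IDs with that symbol) and 4.42 ± 0.38. Itgax, the CD11c chain, was at 1.71 and 0.84 TPM in Ly6Chi and 16.2 TPM in MDP, and Pecam1, an endothelial and leukocyte adhesion molecule, at 9.36 and 11.1 TPM in Ly6Chi and 103 TPM in MDP. Both fell. Fc and complement receptors with complement components rose in 16 of 19 cases and fell in 1. C3, the central complement protein, was at 798 and 818 TPM in Ly6Chi and 11.1 TPM in MDP, and the Fc receptor Fcgr3 had a log2 change of 5.53.

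Lysosome and phagocytosis genes rose in 27 of 30 cases and fell in 2, with a median log2 change of 2.01 and a summed level of 19682 and 20104 TPM in Ly6Chi and 4247 TPM in MDP. Cybb, the catalytic subunit of the phagocyte NADPH oxidase, was at 850 and 816 TPM in Ly6Chi and 11.1 TPM in MDP. Ctss, a protease of antigen processing, was at 1866 and 1954 TPM in Ly6Chi and 138 TPM in MDP. Cd63 and Gaa fell, by 1.76 and 0.86 on the log2 scale. MHC class II genes were split: 6 of 10 rose and 2 fell, and 2 rose and 1 fell without Ly6Chi replicate 1. Cd74, the invariant chain, was at 730 and 781 TPM in Ly6Chi and 74.2 TPM in MDP, a log2 change of 3.33 ± 0.40. H2-Oa and H2-Ob, which inhibit peptide loading, fell by 2.01 and 2.54. Class I genes were called about as often as all genes. Of 18, 4 (22.2%) were higher and 4 (22.2%) lower, beside 18.2% and 25.6% of all genes tested. Their median was -0.14, equal to that of all genes to 2 decimals, and fewer passed without either Ly6Chi replicate.

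Genes of cell growth fell and genes of mitosis mostly did not pass. All 25 DNA replication genes tested were lower, with a median log2 change of -1.56, and all 27 ribosome biogenesis genes were lower, with a median of -1.86. With median centring, 24 and 26 of them passed. Mcm2, a subunit of the replicative helicase, was at 41.9 and 38.9 TPM in Ly6Chi and 191 TPM in MDP. Gnl3, nucleostemin, was at 9.15 and 8.67 TPM in Ly6Chi and 95.6 TPM in MDP, a log2 change of -3.29 ± 0.29. Of 25 mitosis genes, 5 were lower and none higher, with a median of -0.21. The share lower, 20%, was below the 25.6% of all genes tested. Mki67, the proliferation antigen Ki-67, was at 192 and 154 TPM in Ly6Chi and 165 TPM in MDP, so the MDP value lay between the replicates. Mad2l1, Ttk and Bub1, which act in the spindle checkpoint, were the 3 largest falls, by 0.82, 0.73 and 0.68. The number of mitosis genes called was 1 without Ly6Chi replicate 1 and 0 without Ly6Chi replicate 2, and 8 with quantile normalisation.

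In the BCL2 family of apoptosis regulators 5 of 15 genes rose and 1 fell, and 3 rose without either Ly6Chi replicate, but 8 rose with median centring, with quantile normalisation or without the cMoP libraries. Bcl2 was at 1.21 and 1.39 TPM in Ly6Chi and 74.0 TPM in MDP, a log2 change of -5.03 ± 0.49. Mcl1, another survival gene, was at 384 and 501 TPM in Ly6Chi and 82.9 TPM in MDP, and Bmf, a pro-apoptotic member, at 33.7 and 29.9 TPM in Ly6Chi and 0.57 TPM in MDP. Bcl2 was thus far lower and Mcl1 and Bmf higher in both Ly6Chi libraries. Bcl2a1d rose by 1.47 and belongs to a cluster of near-identical copies.

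Among genes of RNA splicing and decay, core spliceosome genes were mostly lower. Of 36 core spliceosome genes, 27 were lower and none higher, with a median log2 change of -0.88, but the number lower was 16 with median centring. It was 13 without Ly6Chi replicate 1 and 11 without Ly6Chi replicate 2. Snrpd2, an Sm core protein, was at 42.8 and 42.5 TPM in Ly6Chi and 136 TPM in MDP. Of 44 splicing regulators, 24 were lower and 2 higher, and 15 were lower and none higher without Ly6Chi replicate 2. Srsf7, an SR protein, was at 58.1 and 64.4 TPM in Ly6Chi and 214 TPM in MDP, and Tardbp, which encodes TDP-43, at 213 and 208 TPM in Ly6Chi and 599.7 TPM in MDP. The risers were Hnrnpll and the SR-protein kinase gene Clk3, by 0.89 and 0.58. Among 20 NMD factors 6 were lower and 2 (Pnrc2 and Dhx34) higher, with a median of -0.27, a share lower near the 25.6% of all genes; 2 were lower with median centring, and none passed without either Ly6Chi replicate. Of 30 genes known for regulated retained introns 14 were lower and none higher, and 9 were lower without Ly6Chi replicate 2. Among NMD genes Upf3b and Ncbp1, which act in decay and in cap binding, fell by 1.11 and 1.00.

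**Figure D2:**
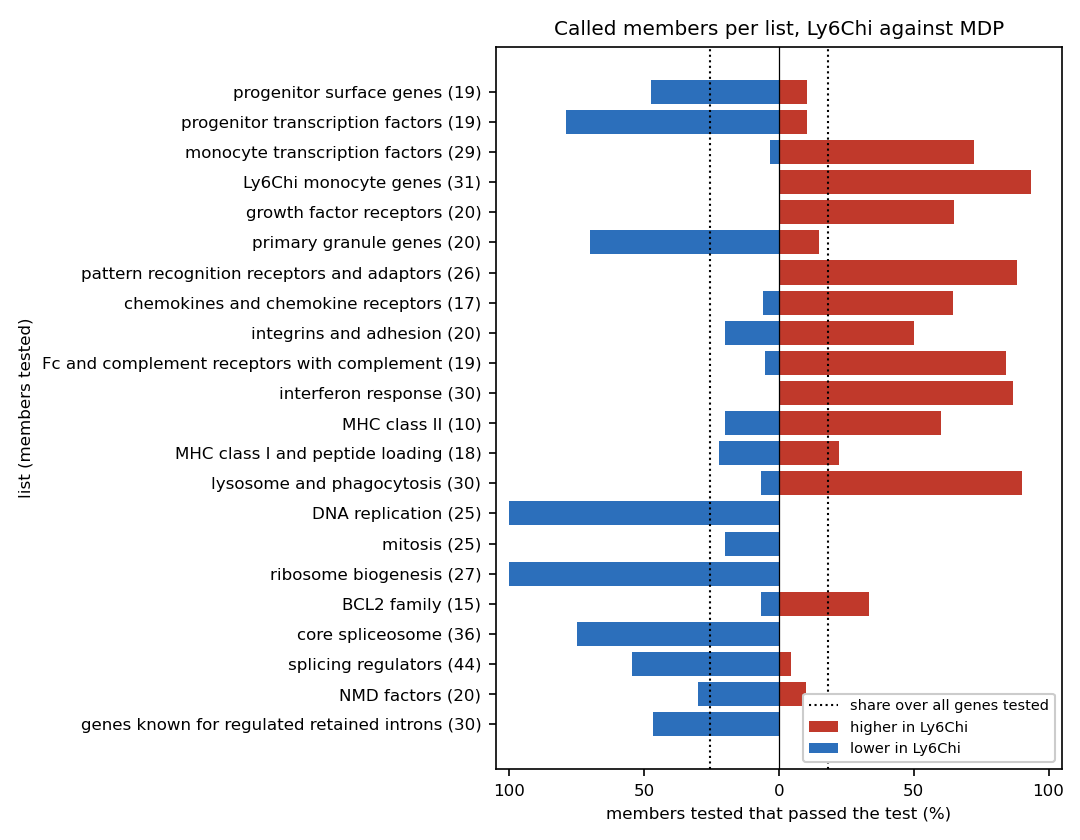
Percentage of tested members of each of 22 gene lists that were higher (red, to the right) or lower (blue, to the left) in Ly6Chi than in MDP; the number tested follows each name and dotted lines mark the 18.2% and 25.6% of all genes tested. Ly6Chi monocyte, lysosome, innate sensing and interferon lists extend far to the right, and DNA replication and ribosome biogenesis reach 100% on the left.

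Markers of other cells were checked in the same columns. Neutrophil markers had all 16 members tested, 2 higher and 1 lower, and summed to 1698 and 2192 TPM in Ly6Chi and 1602 TPM in MDP. Cd177 was higher, at 204 and 279 TPM in Ly6Chi and 9.21 TPM in MDP. Padi4 was higher too, at 83.4 and 74.55 TPM in Ly6Chi and 7.24 TPM in MDP, and Cxcr2 was the lower member. The other 13 did not pass, among them S100a8, at 579 and 653 TPM in Ly6Chi and 454 TPM in MDP. Macrophage markers summed to 238 and 244 TPM in Ly6Chi and 22.2 TPM in MDP, with 4 of 9 higher and 1 lower, of which Adgre1, the F4/80 antigen, is also a monocyte gene. Dendritic cell markers ran the other way, with 8 of 12 lower and 2 higher, and summed to 213 and 253 TPM in Ly6Chi and 708 TPM in MDP; Cox6a2 and Siglech, genes of plasmacytoid dendritic cells, were at 37.7 and 14.2 TPM in MDP. B and plasma cell markers were lower in 7 of 9 cases, summing to 26.4 and 30.3 TPM in Ly6Chi and 76.0 TPM in MDP. T and NK cell markers summed to 19.6 TPM or less, with 1 of 2 lower. Erythroid markers summed to 35.7 and 189 TPM in Ly6Chi and 42.8 TPM in MDP, and none of 4 passed. Eosinophil, basophil and mast cell markers summed to 37.8 TPM or less, with 1 of 7 lower (3 without the cMoP libraries) and Cma1 listed at 0, and the single megakaryocyte marker tested did not pass. The part of these cells in the results was not tested.

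The share of introns that were retained differed by under 1 percentage point between the groups. Over 65553 introns with at least 20 boundary and spliced reads in every library, the deposited retention ratio (intron signal over the sum of intron and spliced signal) was 0.1 or more in 6.04% (95% Wilson interval 5.86 to 6.22) and 5.72% (5.54 to 5.90) of introns in Ly6Chi and in 6.00% (5.82 to 6.19) in MDP. The MDP share lay between the replicates at this threshold. At a ratio of 0.05 or more it lay above both, with 14.3% and 13.9% in Ly6Chi and 14.7% in MDP. Among the 15067 introns without a warning it lay below both, with 4.85% and 5.07% in Ly6Chi and 4.44% in MDP, so the direction depends on these choices. The intervals cover counting error only, and 2 libraries against 1 allow no two-sided exact p below 0.33, so no test was made. Boundary reads per 100 spliced reads were 9.36 and 9.50 in Ly6Chi and 9.0 in MDP. In the other libraries the share was between 1.52% and 4.38% where the 3′ lean was stronger and 8.11% in Ly6Clo, whose lean was like that of MDP.

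**Figure D3:**
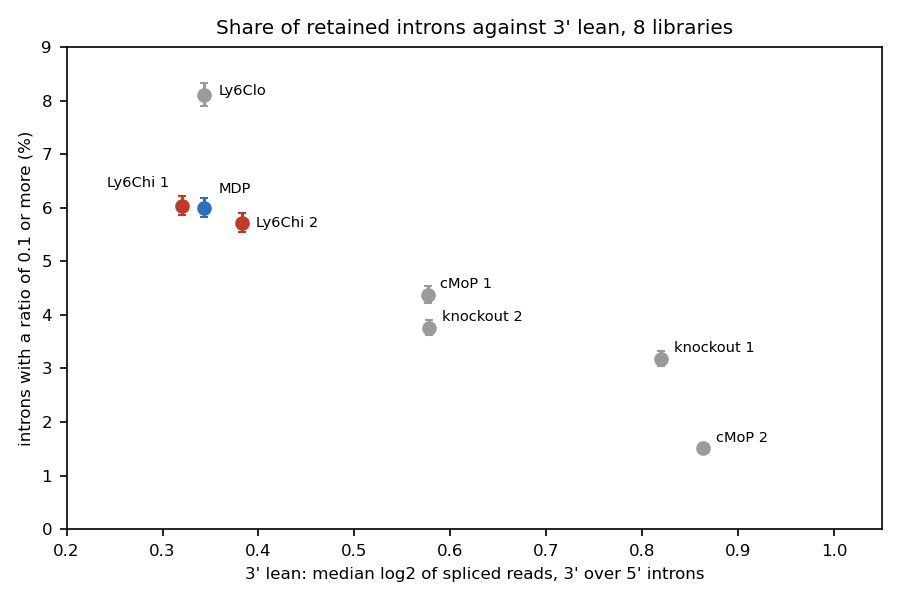
Share of introns with a retention ratio of 0.1 or more (vertical, %, bars are 95% Wilson intervals) against the 3′ lean (horizontal, log2) for all 8 libraries. The Ly6Chi (red) and MDP (blue) libraries lie together at 5.72% to 6.04% with a lean of 0.32 to 0.38, and the libraries that lean further lie lower.

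The introns retained were largely shared. Of the 65553, 2686 introns in 1493 genes reached 0.1 in all 3 libraries, 463 reached it in both Ly6Chi libraries and not in MDP, and 669 reached it in MDP and in neither Ly6Chi library. Most of those crossings were small: introns retained in MDP only had a median ratio of 0.076 and 0.070 in Ly6Chi and 0.115 in MDP. Introns retained in all 3 libraries had a median length of 828 bases, against 1421 bases for all measured introns. Those retained in Ly6Chi only had a median of 486 bases and those retained in MDP only one of 1340 bases. The ratio chose these sets, so their lengths are a description.

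Few introns differed in retention when all 8 libraries set the spread. Boundary reads relative to spliced reads were tested for 48132 introns in 6785 genes with edgeR's quasi-likelihood test, and 3 passed (0.00623%), 2 higher (0.00416%) and 1 lower (0.00208%) in Ly6Chi. At an unadjusted p under 0.05 there were 1837, of which 965 were higher and 872 lower, and the median log2 change was 0.01. DESeq2 also gave 2 higher and 1 lower. Where the cMoP libraries were left out, 89 introns in 58 genes passed (0.185%), 40 higher (0.0831%) and 49 lower (0.102%). That fit estimates the spread from the Ly6Chi and knockout replicates alone. The knockout libraries had a 3′ lean of 0.82 and 0.58, beside 0.58 and 0.86 in cMoP, so that fit is not matched in lean. Values below that pass only without the cMoP libraries are named as such. When libraries were left out of the fit with all 8, none passed without either Ly6Chi replicate or without the knockout libraries (edgeR; 942 to 1372 at an unadjusted p under 0.05), and 145 passed with the MDP and Ly6Chi libraries alone.

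Of the 3 introns called with all libraries, 1 was read at both of its ends. Apoe, the lipid carrier apolipoprotein E, had its first intron (chr7:19698474-19699010, 537 bases, in the 5′ untranslated region) at a ratio of 0.024 and 0.016 in Ly6Chi and 0.486 in MDP. Boundary reads were 88 and 82 in Ly6Chi and 26 in MDP, and spliced reads 2328 and 3274 in Ly6Chi and 21 in MDP. The log2 change of boundary relative to spliced reads was -5.33 ± 0.53 (SE; edgeR adjusted p = 0.012). The gene itself was at 728 and 857 TPM in Ly6Chi and 7.90 TPM in MDP, so the MDP ratio rests on few reads. The other 2 were one-ended, meaning that the boundary with fewer reads had under 0.25 of the reads of the other. In Adssl1 (chr12:112632317-112632694), an adenylosuccinate synthase gene, the downstream boundary held 438 and 526 reads in Ly6Chi and 2 in MDP, while the upstream boundary held 15 and 10 in Ly6Chi and 13 in MDP. In Sema4d (chr13:51734571-51763251), a semaphorin gene, all 480 and 404 boundary reads of Ly6Chi lay at one end, and the ratio was 0.002 and 0.001 in Ly6Chi and under 0.001 in MDP. Reads at 1 end alone do not show that the whole intron was present. With 2 times the smaller boundary count in place of the sum, no intron passed, and 656 had an unadjusted edgeR p under 0.05.

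Odc1 had the most introns called without the cMoP libraries, 10 of 11. It encodes ornithine decarboxylase, the rate-limiting enzyme of polyamine synthesis, and all 11 of its tested introns had a higher ratio in both Ly6Chi libraries than in MDP. The ratios ran from 0.084 to 0.299 with a median of 0.130 in Ly6Chi replicate 1, from 0.074 to 0.314 with a median of 0.156 in replicate 2, and from 0.014 to 0.056 with a median of 0.024 in MDP. Every Odc1 ratio in Ly6Chi lay above the MDP range, a description of a gene picked for its calls. How often other genes do so was not counted. The intron between exons 9 and 10, whose junction is shown above, was at 0.260 and 0.314 in Ly6Chi and 0.056 in MDP, with 45 and 53 boundary reads in Ly6Chi and 67 in MDP against 65 and 67 spliced reads in Ly6Chi and 640 in MDP. Its log2 change was 2.82 ± 0.85. None of the 11 passed with all libraries and 10 passed without the cMoP libraries by edgeR, where this intron had an adjusted p of 0.00034. The change lay above 0 for all 11 in every one of the 15 alternatives. Leaving out cMoP or knockout libraries could hardly alter that estimate, because each group had its own mean. No Odc1 intron passed with DESeq2, with limma on intron depth, with 2 times the smaller boundary count or without the knockout libraries. Expression of Odc1 fell to 11.04 and 14.42 TPM in Ly6Chi, against 136 TPM in MDP (log2 change -3.33 ± 0.53, limma adjusted p = 0.0054). Boundary reads summed over the gene were 320 and 426 in Ly6Chi and 561 in MDP, while spliced reads were 755 and 1098 in Ly6Chi and 9299 in MDP, so the spliced reads fell further than the boundary reads. The 11 introns share a transcript and are not independent.

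In Slc3a2 and Pcna, too, all tested introns lay higher, with median log2 changes of 1.86 and 1.45, beside 2.79 in Odc1. Slc3a2 encodes the heavy chain of amino acid transporters, and all 9 of its tested introns, some of which overlap, lay higher in Ly6Chi, with medians of 0.073 and 0.138 in Ly6Chi and 0.025 in MDP. The intron between exons 6 and 7 was at 0.072 and 0.084 in Ly6Chi and 0.008 in MDP, a log2 change of 3.21 ± 0.86, and 4 of the 9 passed without the cMoP libraries by edgeR. Slc3a2 itself was at 44.1 and 64.3 TPM in Ly6Chi and 107 TPM in MDP and did not pass (limma adjusted p = 0.074). Pcna, the sliding clamp of DNA polymerase, had all 4 tested introns higher in Ly6Chi, and 2 passed without the cMoP libraries. Its intron between exons 3 and 4 was at 0.057 and 0.049 in Ly6Chi and 0.018 in MDP. Pcna fell to 254 and 264 TPM in Ly6Chi, against 534 TPM in MDP. None of these introns passed with all libraries.

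Klf2, Fos and Rgs2 had the opposite pattern, with lower ratios in Ly6Chi and higher expression. Klf2, a zinc-finger factor of quiescence, had its second intron at 0.073 and 0.042 in Ly6Chi and 0.294 in MDP, a log2 change of -3.30 ± 0.55, and its first at 0.167 and 0.229 in Ly6Chi and 0.558 in MDP. Only the second passed without the cMoP libraries (edgeR adjusted p = 0.0021). Klf2 was at 143 and 201 TPM in Ly6Chi and 7.87 TPM in MDP, and the MDP ratios rest on 29 and 47 spliced reads. Fos, a subunit of the AP-1 factor, had its intron between exons 3 and 4 at 0.047 and 0.016 in Ly6Chi and 0.192 in MDP, a log2 change of -2.67 ± 0.47. Both tested Fos introns and both of Rgs2, a regulator of G-protein signalling, passed without the cMoP libraries. Fos was at 1103 and 1818 TPM in Ly6Chi and 154 TPM in MDP, and Rgs2 at 412 and 367 TPM in Ly6Chi and 55.4 TPM in MDP. Both genes rose, and none of these introns passed with all libraries. Retention and expression did not run in opposite directions in every gene. Zfand5, a zinc-finger regulator of protein breakdown, had all 6 tested introns higher in Ly6Chi, with a median log2 change of 1.44. Its expression also rose, by 1.40 on the log2 scale.

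**Figure D4:**
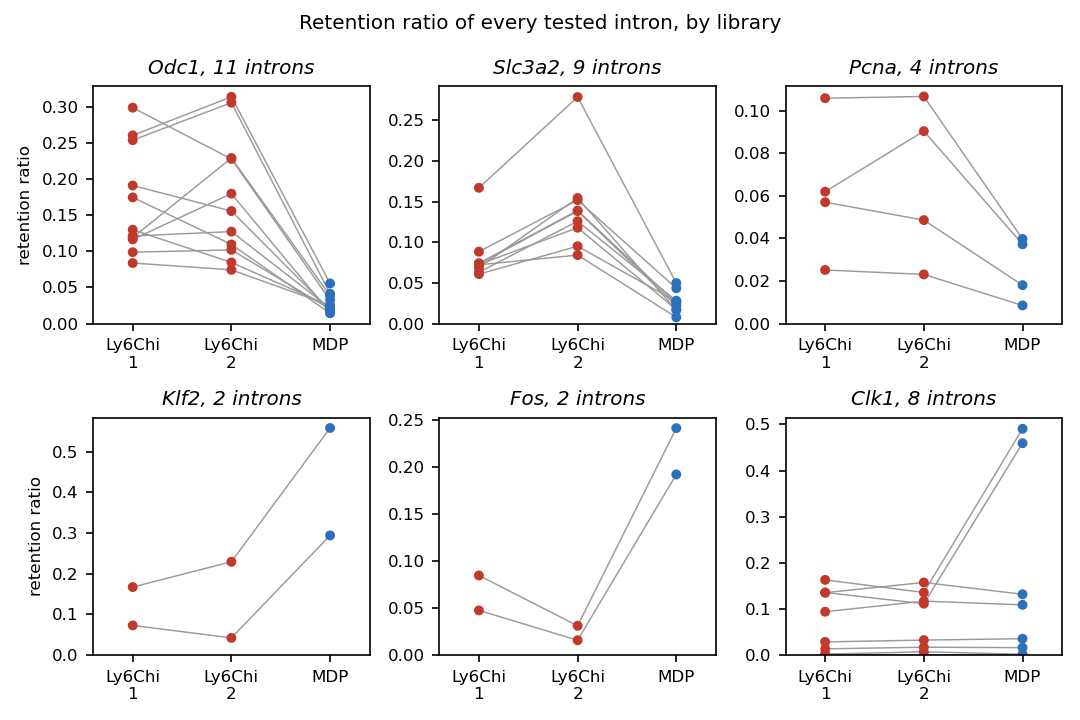
Deposited retention ratio (vertical; each panel has its own scale from 0) of every tested intron of 6 genes, joined across the 2 Ly6Chi libraries (red) and the MDP library (blue). Odc1, Slc3a2 and Pcna introns lay lower in MDP, Klf2 and Fos introns lay higher in MDP, and in Clk1 2 of 8 introns stood apart at 0.459 and 0.491 in MDP.

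Genes known for regulated retained introns gave 238 tested introns in 26 genes. None passed with all libraries, and 2 passed without the cMoP libraries, both in Ogt; the median change was 0.18, beside 0.01 for all introns. Ogt encodes the enzyme that adds O-linked N-acetylglucosamine to proteins, and its intron 4 is known to be retained in nuclear transcripts. That intron (chrX:101652209-101655623) was at 0.797 and 0.780 in Ly6Chi and 0.544 in MDP, with a log2 change of 1.41 ± 0.58 and an edgeR adjusted p of 0.030 without the cMoP libraries. The 2 Ogt introns share their upstream boundary, so they are not separate observations. All but 1 of the other 14 tested Ogt introns had a ratio under 0.02 in Ly6Chi. Clk1, an SR-protein kinase that autoregulates its own splicing, had introns 3 and 4 at 0.163 and 0.136, and at 0.135 and 0.111, in the Ly6Chi libraries, beside 0.491 and 0.459 in MDP. They had log2 changes of -1.41 ± 0.51 and -1.71 ± 0.51 and did not pass with or without the cMoP libraries (edgeR adjusted p = 0.17 and 0.077 without). Clk1 itself was at 212 and 206 TPM in Ly6Chi and 181 TPM in MDP. Among introns of the list with ratios under 0.15, Tra2b had a change of 3.39 and Nxf1 one of -1.53, and neither passed. The Tra2b value rests on 10 and 12 boundary reads in Ly6Chi and 2 in MDP. The highest change of a tested Ogt intron was 4.36, and that intron did not pass.

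When introns were ranked by the gap between the MDP ratio and the nearer Ly6Chi ratio, and limited to introns read as spliced 20 times or more per library, Ptprc and Nfkbiz introns stood first among those higher in Ly6Chi. The values chose these introns, so they carry no test. In Ptprc, which encodes the phosphatase CD45, the introns after exons 5 and 4 were at 0.848 and 0.658, and at 0.743 and 0.602, in the Ly6Chi libraries, beside 0.204 and 0.151 in MDP. These introns adjoin exons that are known to be skipped in some leukocytes. Neither was in the tested set, and each carried a warning in every Ly6Chi and MDP library. Their spliced reads were 36 and 80, and 50 and 64, in the Ly6Chi libraries, beside 216 and 172 in MDP. Expression of Ptprc rose by a log2 change of 2.13. In Nfkbiz, an inducible cofactor of NF-kappa-B, the intron after exon 13 was at 0.575 and 0.569 in Ly6Chi and 0.243 in MDP. Zfand5 had the intron at chr19:21273336-21276425 at 0.380 and 0.500 in Ly6Chi and 0.165 in MDP. Tep1 and Ccdc12 introns also ranked high but were one-ended. In the other direction stood, beside Apoe, Klf2 and Clk1, the chemokine genes Ccl3 at 0.206 and 0.092 in Ly6Chi and 0.452 in MDP, and Ccl4 at 0.188 and 0.059 in Ly6Chi and 0.494 in MDP. Ptbp2, Siglecg and Tet2 completed that side.

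Of the 49 introns lower in Ly6Chi without the cMoP libraries, 10 lay in 9 ribosomal protein genes, a group noticed after its values were seen; 1 further intron, in Rps9, was higher (log2 change 0.96, edgeR adjusted p = 0.020) and one-ended. Their ratios were low throughout: the Rpl21 intron (chr5:146833567-146834183) was at 0.001 in both Ly6Chi libraries and 0.003 in MDP, from 15 and 16 boundary reads in Ly6Chi and 128 in MDP. Over all 261 tested introns of 62 ribosomal protein genes 65.9% lay below 0, beside 49.5% of all introns, with a median change of -0.25. Several other calls rest on shared ends: the 5 Cic introns share a boundary, as do the 3 Pkib introns and 3 of the 4 Dgkz introns. Of the 89 introns 55 were read at both ends, and 35 reached a ratio of 0.1 in any of the 3 libraries.

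The remaining introns of smallest p did not pass with all libraries. Higher in Ly6Chi were 3 overlapping introns of Pkib and introns of Wdr4, Pim3, Tep1, Ccdc12 and Sidt2, all one-ended. Lower in Ly6Chi were introns of Tmsb4x, Rpl21, Dgkz, Klf2, Chil3 and Elane, read at both ends, and one-ended introns of Bcl7c, Gm28285 and Ubtf. Elane, whose expression did not pass, had intron 3 at 0.009 and 0.003 in Ly6Chi and 0.054 in MDP. Tmsb4x, which encodes the actin-binding thymosin beta 4, had a ratio of 0.003 or less in all 3 libraries, with a log2 change of -2.44 ± 0.30 (edgeR adjusted p = 0.079).

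Across genes, retention change and expression change were nearly unrelated. Over 6759 genes the median retention change of a gene's introns correlated with its expression change at Pearson r = -0.01 and Spearman rho = -0.04, a description over genes measured in the same libraries. In the 22 introns of genes that fell by a log2 of over 4 the median retention change was -0.11, in the 743 introns of genes that fell by 2 to 4 it was 0.04, and in the 34601 introns of genes within 1 it was 0.01. In the 1837 introns of genes that rose by 2 to 4 it was -0.01, and in the 365 introns of genes that rose by over 4 it was -0.14. Of the 23 genes with an intron called higher in Ly6Chi without the cMoP libraries, 11 had a higher and 12 a lower expression value. Of the 35 genes with an intron called lower, 13 had a higher and 22 a lower one. Lower values were the commoner direction among all 13126 genes tested for expression too. There, both Ly6Chi libraries lay below MDP in 6905 genes and above it in 5253. Whether the smaller counts depart from this was not tested.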

How the data were processed

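RNA-seq libraries of sorted mouse bone marrow cells were analysed from the deposited tables. The submitters' processing notes name FastQC, Trimmomatic, STAR 2.5.2a and RSEM, with builds mm10 and hg38, without roles. The expression values are deposited in a table named FPKM, but each column sums to 1000000 within 1, so they were treated as TPM from the authors. The intron tables hold the authors' counts of boundary and spliced reads, the deposited intron coverage signal, and the deposited retention ratio as a fraction; the sources used here name no counter for them. The ratio was recomputed from these columns within 0.0001 for 96.7% to 98.0% of introns.

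Expression was tested with limma 3.58.1 (log2 of TPM + 1, trend, 1 mean per group, 8 libraries). Retention was tested with edgeR 4.0.16 on boundary against spliced counts, with library, read type and their interaction with group, for introns in every table, not marked as overlapping a known exon or antisense gene, with at least 20 reads in every library and 20 boundary reads over all. DESeq2 1.42.0 was an alternative. The 3′ lean used genes with at least 6 introns and 100 spliced reads in every library.

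Members and gene lists were chosen with earlier results of these data known. Genes named are, of those past the test with both Ly6Chi libraries on one side of MDP, the 10 largest changes each way, the 3 largest each way in each list, and 13 fixed lineage genes; introns are those of smallest p, largest ratio gap, and the list of known retained introns. Mki67, S100a8, Siglech, Plac8, Odc1, Slc3a2, Pcna, Fos, Rgs2 and the ribosomal protein genes were named after their values were seen. Splice-site intron bases are not shown because no genome sequence was used here. Some genes that the rule names are not reported here.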

Additional observations from a re-analysis of the deposited data

How the results depend on the processing

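Expression counts stayed within 1.5 times of 5748 under every alternative except leaving out a Ly6Chi replicate; over all single-replicate omissions they ran from 2990 to 7600. The unfiltered fit called 7338 of more genes, 2318 higher and 5020 lower. Called retention changes moved more: 51 with TMM scaling of boundary and spliced reads apart, 66 with no filter beyond 1 read, 0 with 2 times the smaller boundary count, 89 without the cMoP libraries, 0 without the knockout libraries, 145 with only the MDP and Ly6Chi libraries, and 124 (1 higher, 123 lower) with limma on intron depth; single-replicate omissions gave 0 to 96. It stayed at 3 with DESeq2 and with marked introns included. Why the number of calls moved between these settings was not tested. Ly6Chi minus MDP in the retained share was -0.12 percentage points, -0.63 at a ratio of 0.05, and 0.52 among introns without a warning; it was -0.28 to 0.04 without either Ly6Chi replicate. The difference in 3′ lean was 0.01, was 0.060 with last against first introns, and ran from -0.02 to 0.04 without a replicate. With the smaller boundary count the change turned to -3.16 in Sema4d, -1.61 in Pkib, -1.05 in Ccdc12, 3.53 in Ubtf and 0.52 in Nxf1, and with intron depth to 0.36 in Bcl7c. No paired analysis was possible because MDP has 1 library, so the groups share fewer than 2 replicate numbers. A single MDP library and low read numbers in Apoe and Klf2 limit what these values show.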
